A study of Homo sapiens with 42 samples.

Results

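DAZAP2 encodes DAZ-associated protein 2, a small proline-rich adaptor protein found in most tissues. The gene had 5 of the 94924 entries in each of the 3 deposited tables, an entry being 1 RNA 3′ end, and it was 1 of 42145 genes with an entry. It was chosen by measured values of these libraries, namely the counts of its ends in nuclear against cytoplasmic RNA and along the T4 time course, so those contrasts are described here without a test. Entries were assigned to DAZAP2 by transcript identifier in the GENCODE 29 annotation, and a genomic position by the transcript it is listed with.

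The libraries are QuantSeq REV, a 3′-end sequencing method in which each read marks the point where a poly(A) tail begins. All cells derive from MDA-MB-231, a human breast cancer line. The fractionated groups are LM2 cells (highly metastatic to the lung) and Par cells (poorly metastatic), and poorly metastatic cells with an HNRNPC knockdown (gHNRNPC) or their control (gCTRL), each as nuclear and as cytoplasmic RNA. Total RNA came from LM2 cells given 3 µM of a compound labelled T4, or DMSO alone in the same volume, during 6 h, and harvested at 6, 24 or 72 h. There are 42 libraries in 14 groups of 3. No label calls the replicates independent cultures, so the p-values speak of the spread among these libraries, and part or all of it may be technical. Whether the knockdown cells are 1 clone or a pool is not stated either.

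In the cell, DAZAP2 binds the kinase HIPK2 and favours its degradation, and it takes part in Wnt signalling through TCF transcription factors and in stress granules. An mRNA is cleaved and given its poly(A) tail in the nucleus, and most finished mRNAs are then exported. HNRNPC is a nuclear protein that binds uridine-rich stretches of pre-mRNA and is known to affect splicing and poly(A) site choice.

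The gene lies on the plus strand of chromosome 12, 51238292–51271362 (GRCh38, GENCODE 29). Only 2 of its 5 entries held more than a few reads. The main end, that of transcript ENST00000436900.2 (51238903–51243785), held 86.4% of the 11523 DAZAP2 reads in all libraries. This transcript is annotated as a target of nonsense-mediated decay, but a read at its end does not say which transcript of the gene it came from. The second end, here called the downstream end, is position 51642715 on the plus strand of chromosome 12 in the coordinates of the files, and held 13.4%. The submitters' processing notes name hg38, but these coordinates do not follow GRCh38, so their assembly is not known. The retained-intron transcript ENST00000549041.1 had 12 reads and the coding transcript ENST00000549732.6 had 4, at most 2 in any library. Position 51636860, in the same coordinates, had 0 reads in every library.

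The last 30 bases of the main end, read from the GENCODE 29 transcripts on the RNA's own strand, are shown because they carry a poly(A) signal (AATAAA, in capitals). The signal starts 25 bases before the end. The coding transcript ENST00000412716.7, which has no entry of its own, ends 148 bases further on, at 51243933, with a signal of its own at the same distance.
ENST00000436900.2: atttgAATAAAgtgatgaagttgcattaca
ENST00000412716.7: tttgaAATAAAggcaggagtacaagcctaa
ENST00000549041.1: aatgtcataaagtaacattttgccttctct
The retained-intron end, shown as the low one, has neither AATAAA nor ATTAAA in these bases. Of 56493 transcript entries with a sequence in the same version, 18.0% had AATAAA in the last 30 bases, and another 5.01% ATTAAA only. No sequence is given for the downstream end, since no genome in the coordinates of the files was used here. Whether an A-rich stretch of genomic sequence lies there was therefore not tested.

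That the second end is the more downstream one was read from the files' positions of neighbouring genes. Over 16 positions of other genes within 400000 bases, the coordinate in the files exceeded the GRCh38 end of the listed transcript by 364857 to 396237 bases. For the DAZAP2 position and the main end the excess was 398930 bases, more than for any of the 16. The position is thus at least 2.69 kb beyond the main end if it is offset like those neighbours. SMAGP, a neighbour on the minus strand (51244558–51270890), has its position at 51639058, and the downstream end of DAZAP2 is 3657 bases further along. If the SMAGP position marks its annotated 3′ end, the downstream end lies opposite the body of SMAGP. SMAGP entries held at most 3 reads in any library. Among the 15 annotated DAZAP2 transcripts, 2 end beyond the SMAGP 3′ end.

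Depth was 0.798 to 2.3 M counts per library. Levels are CPM, the usual depth-scaled count, taken here after TMM scaling, and each table was scaled separately. CPM is a share of the RNA in its own fraction, so it does not count molecules per cell, and in such bulk samples fewer cells and less RNA per cell cannot be told apart. The MDA-MB-231 markers VIM, CD44, AXL and CAV1 were present in every library (at least 27.0 CPM), while KRT18, also on the list, reached only 4.81 CPM. ESR1, PGR and CDH1 were at most 2.3 CPM and ERBB3 at most 7.66 CPM. Among 7 markers of other cell types, PTPRC, CD3E, PECAM1, VWF and DCN were at most 1.59 CPM, CD68 1.92 to 125 CPM and COL1A1 0 to 61.3 CPM.

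The fractions did not separate all RNAs as their names would have it. MALAT1, a nuclear RNA, was higher in nuclei, with 12.5 to 29 CPM in nuclei against 2.16 to 6.19 CPM in cytoplasm of LM2 and Par cells, and 31.7 to 76.2 against 3.86 to 8.68 CPM in the knockdown table. The sum of 9 nuclear RNAs overlapped between fractions in LM2 and Par cells (144 to 209 CPM in nuclei, 134 to 184 CPM in cytoplasm). In the knockdown table it did not (179 to 298 CPM in nuclei, 135 to 166 CPM in cytoplasm). The sum of 9 mitochondrially encoded mRNAs was far higher in the nuclear libraries. It was 23347 to 27703 CPM in nuclei against 1915 to 3781 CPM in cytoplasm of LM2 and Par cells, and 61054 to 98203 against 410 to 2202 CPM in the knockdown table. The part of this in the nuclear levels below was not tested. Nuclear libraries numbered 2 of LM2 and Par stood apart, with TMM factors of 0.721 and 0.731 and 2.35 and 2.29% of reads on TUBD1, against at most 0.715% in the rest of that table. T4 library 3 at 6 h stood apart too, with a factor of 0.5, 3.33% on TUBD1 and only 39 reads at the DAZAP2 ends.

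In every cell group the downstream end took a far larger share of DAZAP2 reads in nuclei than in cytoplasm. The share, in percent of the reads at both ends, was 35.7, 25 and 29.9% in LM2 nuclei, against 3.81, 3.05 and 2.98% in LM2 cytoplasm. In Par cells it was 20.9, 34.0 and 25.8% in nuclei, against 2.15, 2.78 and 1.87% in cytoplasm. No nuclear library of either line overlapped a cytoplasmic one.

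In gHNRNPC cells the share was 50.9, 55.9 and 36.6% in nuclei, against 7.44, 2.62 and 5.13% in cytoplasm. In gCTRL cells it was 37.2, 34.3 and 39.5% in nuclei, against 1.96, 1.47 and 3.10% in cytoplasm. Over all 12 nuclear libraries the lowest share, 20.9%, was above the highest of the 12 cytoplasmic ones, 7.44%. In gHNRNPC nuclei libraries 1 and 2 the downstream end had more reads than the main end.

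Counting error alone, as a Wilson interval at 95%, spans 15.9 to 26.8% for that lowest nuclear library and 5.23 to 10.5% for that highest cytoplasmic one. Reads at the downstream end numbered 21 to 147 in nuclear and 8 to 29 in cytoplasmic libraries. These intervals take each read as an independent molecule, which reads without molecular identifiers need not be.

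**Figure D1:**
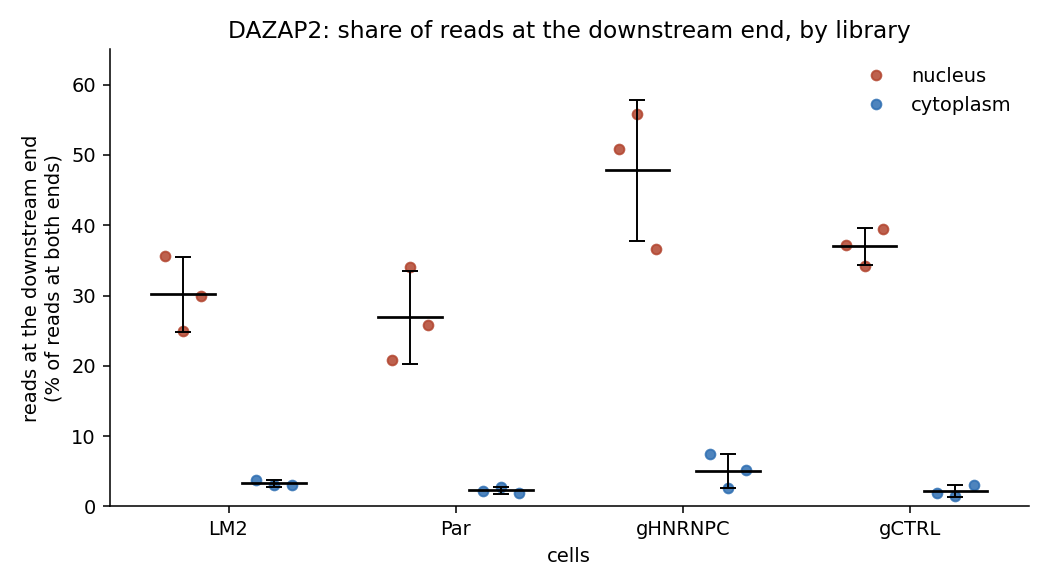
Percent of DAZAP2 reads at the downstream end (y axis) in each library of the 4 cell groups (x axis), nucleus left of cytoplasm. Points are libraries, bars the mean ± SD (n = 3). The 12 nuclear libraries sit between 20.9 and 55.9%, all above the 12 cytoplasmic ones at 1.47 to 7.44%.

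Both ends differed between the fractions, in opposite directions. The main end had 78.0, 75.7 and 85.1 CPM in LM2 nuclei, against 178, 177 and 205 CPM in LM2 cytoplasm. In Par cells it had 120, 112 and 131 CPM in nuclei, against 294, 302 and 289 CPM in cytoplasm. Nuclear levels were lower in every library of both lines.

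In gHNRNPC cells the main end had 92.8, 77.8 and 113 CPM in nuclei, against 196, 209 and 190.3 CPM in cytoplasm. In gCTRL cells it had 157, 136 and 116 CPM in nuclei, against 381, 289 and 355 CPM in cytoplasm. The group mean of the main end was 2.10-fold (gHNRNPC) to 2.50-fold (gCTRL) lower in nuclei, with LM2 at 2.34-fold and Par at 2.44-fold.

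The downstream end had 43.2, 25.2 and 36.3 CPM in LM2 nuclei, against 7.05, 5.57 and 6.29 CPM in LM2 cytoplasm. In Par cells it had 31.6, 57.6 and 45.5 CPM in nuclei, against 6.47, 8.63 and 5.50 CPM in cytoplasm. These means differ 5.54-fold in LM2 and 6.54-fold in Par cells, with no overlap between fractions.

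In gHNRNPC cells the downstream end had 96.2, 98.4 and 65 CPM in nuclei, against 15.7, 5.62 and 10.3 CPM in cytoplasm. In gCTRL cells it had 93.2, 71.1 and 75.9 CPM in nuclei, against 7.61, 4.32 and 11.4 CPM in cytoplasm. The means differ 8.21-fold in gHNRNPC and 10.3-fold in gCTRL cells, again with no overlap.

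**Figure D2:**
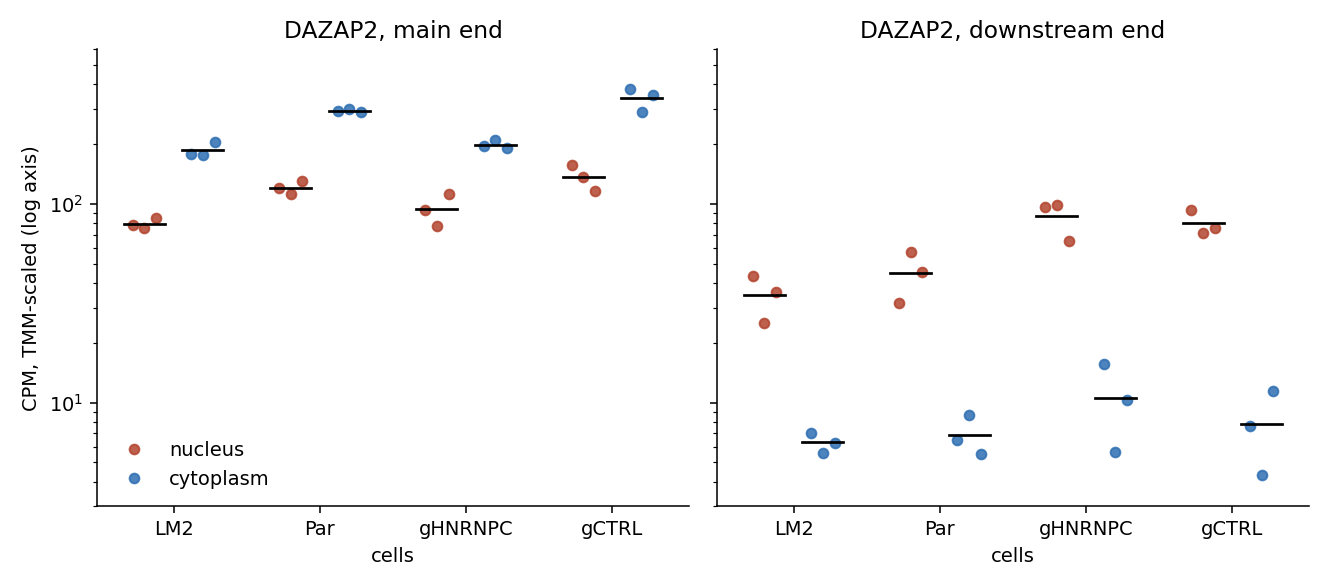
CPM (y axis, log scale) of the main end (left) and the downstream end (right) of DAZAP2 in each library of the 4 cell groups, nucleus left of cytoplasm. Points are libraries and lines the means. The main end is lower and the downstream end higher in nuclei in each cell group, without overlap.

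The log2 ratio of downstream to main end, nucleus minus cytoplasm, was 3.66 ± 0.37 in LM2, 3.95 ± 0.36 in Par, 4.13 ± 0.39 in gHNRNPC and 4.70 ± 0.40 in gCTRL cells (edgeR estimate ± standard error, n = 3 per group). Genes with a known order of their ends had medians of 0.44, 0.25, 0.13 and 0.34 in those cell groups, so the typical change was also toward the downstream end, but small. Ordered by change toward the downstream end, DAZAP2 stood at rank 29 of 1030 such genes in LM2 and at rank 12 in Par. It stood at rank 3 of 1126 in gHNRNPC and at rank 4 in gCTRL cells. Among all pairs of ends tested, edgeR called 38% in LM2, 11.2% in Par, 14.3% in gHNRNPC and 29.3% in gCTRL cells (adjusted p under 0.05). Since the gene was selected on this contrast, nothing is read from those shares.

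The sum of the DAZAP2 ends was lower in nuclei, by less than the main end alone. It averaged 115 ± 12.0 CPM in LM2 nuclei and 193 ± 15.9 CPM in LM2 cytoplasm, and 166 ± 12.9 CPM in Par nuclei and 302 ± 8.11 CPM in Par cytoplasm (SD, n = 3 each). The knockdown table gave 181 ± 7 CPM in gHNRNPC nuclei and 210 ± 7.28 CPM in gHNRNPC cytoplasm, and 217 ± 30.1 CPM in gCTRL nuclei and 350 ± 49.5 CPM in gCTRL cytoplasm. Nuclear and cytoplasmic libraries did not overlap in any cell group.

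The genes whose change was nearest to that of DAZAP2 over the 4 cell groups, out of 913 genes with the same pair of ends in both fractionated tables, were NGRN, SLC25A26, RPL23, HNRNPA1 and ERGIC3. Their distances, on the log2 scale and over 4 cell groups, were 0.985, 1.06, 1.17, 1.36 and 1.39. NGRN encodes neugrin, which acts in mitochondrial ribosome assembly. Its downstream end took 46.9 ± 5.54% of reads in LM2 nuclei and 6.43 ± 1.29% in LM2 cytoplasm, and 64.5 ± 4.64% in gCTRL nuclei and 9.66 ± 3.02% in gCTRL cytoplasm. SLC25A26, the mitochondrial carrier of S-adenosylmethionine, had a high share in both fractions, with 98.3 ± 0.916% in gCTRL nuclei and 78.9 ± 4.72% in gCTRL cytoplasm.

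RPL23, a protein of the large ribosomal subunit, had 91.6 ± 1.95% in gCTRL nuclei and 32.9 ± 9.55% in gCTRL cytoplasm, from 157 and 190 reads. HNRNPA1, an RNA-binding regulator of splicing, had 32.4 ± 10.2% in gCTRL nuclei and 1.67 ± 0.667% in gCTRL cytoplasm. ERGIC3, a membrane protein of the ER and Golgi, had 63.7 ± 7.36% in gCTRL nuclei and 13.6 ± 1.41% in gCTRL cytoplasm. RPL23 and HNRNPA1 have near-identical processed copies elsewhere in the genome, among which their reads could be split, so their values are uncertain. In 3 genes the smallest of the 4 changes was at least as large as that of DAZAP2. The 4 changes share their libraries and, within each table, their scaling, so the distances are a description.

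**Figure D3:**
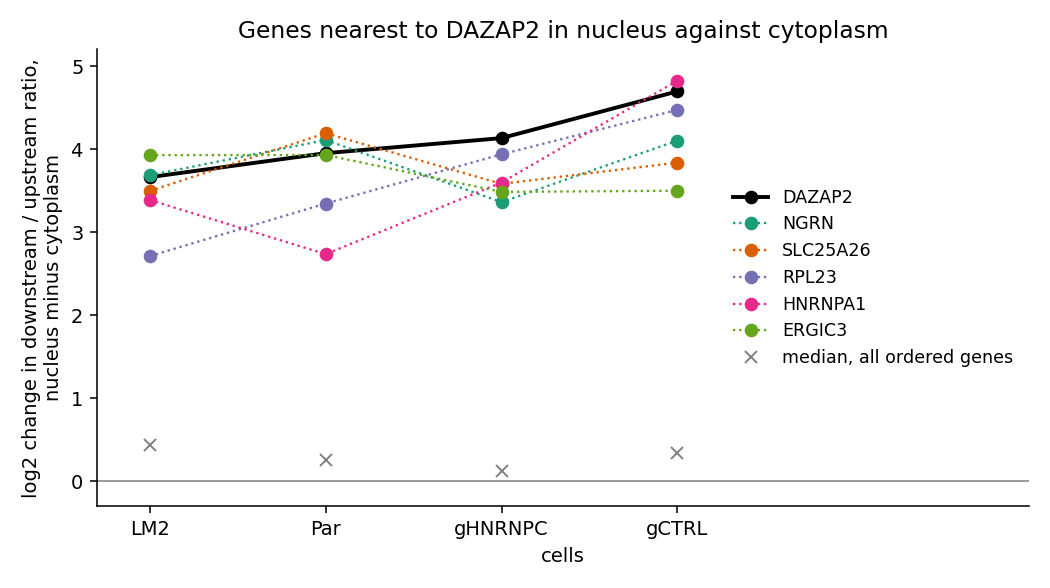
Log2 change of the downstream to upstream ratio, nucleus minus cytoplasm (y axis), in the 4 cell groups (x axis) for DAZAP2 (solid line) and the 5 genes nearest to it (dotted). Crosses are the medians of all genes with ordered ends, at 0.13 to 0.44, while DAZAP2 runs at 3.66 to 4.70.

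LM2 and Par cells were compared within each fraction, a contrast that did not choose the gene. DAZAP2 was lower in LM2 cytoplasm. The sum of its ends averaged 193 ± 15.9 CPM in LM2 cytoplasm and 302 ± 8.11 CPM in Par cytoplasm, a log2 change of −0.64 ± 0.14 (edgeR, adjusted p = 0.019), lower in 3 of 3 libraries. In this comparison 10.9% of 8546 genes were called. The main end fell with it (−0.66 ± 0.14, edgeR adjusted p = 0.018; 0.010 to 0.32 over 17 alternatives, 9 of them past the threshold), where 10.4% of 9880 entries were called. The downstream end did not pass (−0.13 ± 0.33, edgeR adjusted p = 0.84), with 6.30 ± 0.740 CPM in LM2 cytoplasm and 6.87 ± 1.60 CPM in Par cytoplasm. The call for the sum was lost without any 1 of LM2 cytoplasm libraries 1, 2 and 3 or Par cytoplasm libraries 1 and 2 (edgeR adjusted p = 0.058 to 0.085, log2 −0.71 to −0.60). It was also lost with library totals as the only scaling (adjusted p = 0.18) and with no filter on low counts (adjusted p = 0.099).

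In nuclei the sum averaged 115 ± 12.0 CPM in LM2 and 166 ± 12.9 CPM in Par cells (−0.53 ± 0.14, edgeR adjusted p = 0.093), without overlap between the libraries but not past the threshold. Here 2.2% of genes and 1.88% of entries were called. The main end was at 79.6 ± 4.86 CPM in LM2 nuclei and 121 ± 9.55 CPM in Par nuclei (−0.60 ± 0.14, edgeR adjusted p = 0.068). The downstream end was at 34.9 ± 9.05 CPM in LM2 nuclei and 44.9 ± 13.0 CPM in Par nuclei (−0.36 ± 0.28, edgeR adjusted p = 0.69).

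The ratio of the ends did not pass in either fraction. In cytoplasm the downstream share was 3.28 ± 0.458% in LM2 and 2.27 ± 0.466% in Par cells (log2 ratio +0.55 ± 0.38, edgeR adjusted p = 0.44), and the libraries did not overlap. In nuclei it was 30.2 ± 5.33% in LM2 and 26.9 ± 6.65% in Par cells (+0.26 ± 0.34, edgeR adjusted p = 0.997), with overlap. This ratio was 0.080 without LM2 nuclei library 1, 0.42 without LM2 nuclei library 2, 0.035 without Par nuclei library 1 and 0.52 without Par nuclei library 2. Of 1071 genes, edgeR called 0.187% in cytoplasm, or 2 genes, and 0% in nuclei. The 2 were 0 to 214 over the alternatives, so that background is loose. In nuclei 44 genes had an unadjusted p under 0.05, limma called 0 genes and diffSpliceDGE 1 entry. Without both nuclear libraries numbered 2, the share was 32.8% in LM2 nuclei and 23.3% in Par nuclei, each a mean of 2 libraries, and the log2 ratio 0.67 (edgeR adjusted p = 0.70). The difference of the LM2 effect between nucleus and cytoplasm was −0.29 ± 0.51 on the log2 ratio. As it is made of the contrast that chose the gene, it was not tested.

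The knockdown lowered its target in both fractions. HNRNPC was at 98.4 ± 16 CPM in gHNRNPC nuclei and 534 ± 96.2 CPM in gCTRL nuclei (−2.44 ± 0.20, edgeR adjusted p = 1.2e-08). In cytoplasm it was at 99.8 ± 13.1 CPM in gHNRNPC and 512 ± 32.2 CPM in gCTRL cells (−2.36 ± 0.19, edgeR adjusted p = 1.6e-08).

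DAZAP2 was lower in the cytoplasm of gHNRNPC cells, and so was its main end. The sum of its ends averaged 210 ± 7.28 CPM in gHNRNPC cytoplasm and 350 ± 49.5 CPM in gCTRL cytoplasm (−0.74 ± 0.17, edgeR adjusted p = 0.0028), lower in 3 of 3 libraries, where 23.4% of 9356 genes were called. The main end fell by 0.77 ± 0.19 on the log2 scale (edgeR adjusted p = 0.0043), where 22.5% of 10922 entries were called. Both calls held under every alternative run (adjusted p at most 0.023 and 0.032). The downstream end was at 10.5 ± 5.06 CPM in gHNRNPC and 7.77 ± 3.53 CPM in gCTRL cytoplasm (+0.42 ± 0.38, edgeR adjusted p = 0.45). That change was 0.046 without gHNRNPC cytoplasm library 1, 0.72 without gHNRNPC cytoplasm library 2, 0.13 without gCTRL cytoplasm library 2 and 0.81 without gCTRL cytoplasm library 3, and did not pass in any of these.

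In nuclei none of these passed. The sum averaged 181 ± 7 CPM in gHNRNPC and 217 ± 30.1 CPM in gCTRL nuclei (−0.26 ± 0.18, edgeR adjusted p = 0.37), where 14.1% of genes and 12.5% of entries were called. The main end was at 94.4 ± 17.5 CPM in gHNRNPC and 137 ± 20.5 CPM in gCTRL nuclei (−0.52 ± 0.20, edgeR adjusted p = 0.091), and it passed with library totals as the only scaling (adjusted p = 0.026). The downstream end was at 86.6 ± 18.7 CPM in gHNRNPC and 80.0 ± 11.6 CPM in gCTRL nuclei (+0.13 ± 0.27, edgeR adjusted p = 0.82).

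The ratio of downstream to main end was higher on average after the knockdown without passing the test. In cytoplasm the downstream share was 5.06 ± 2.41% in gHNRNPC and 2.18 ± 0.837% in gCTRL cells (log2 ratio +1.2 ± 0.44, edgeR adjusted p = 0.079), where 11.6% of 1169 genes were called. gHNRNPC cytoplasm library 2, at 2.62%, was the one within the gCTRL range, and without it the ratio passed (+1.55 ± 0.44, edgeR adjusted p = 0.037). Of 18 alternatives only that 1 passed, and over all of them the adjusted p ran from 0.037 to 0.42. In nuclei the share was 47.8 ± 10.0% in gHNRNPC and 37.0 ± 2.63% in gCTRL cells (+0.64 ± 0.36, edgeR adjusted p = 0.42), where 3.68% were called. gHNRNPC nuclei library 3, at 36.6%, was within the gCTRL range of 34.3 to 39.5%. The difference between the 2 fractions in the effect of the knockdown was −0.56 ± 0.56 on the log2 ratio, given without a test for the same reason as above.

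**Figure D4:**
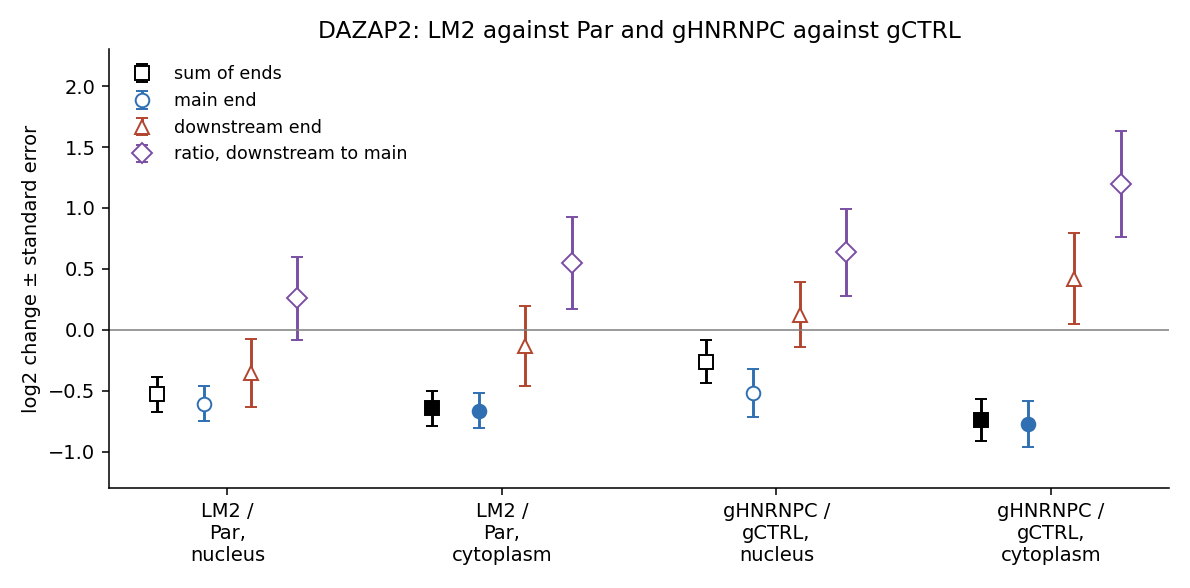
Log2 change ± standard error (y axis, edgeR, n = 3 per group) of DAZAP2 for LM2 against Par and gHNRNPC against gCTRL cells in each fraction (x axis). Filled symbols have an adjusted p under 0.05. Only the sum of ends and the main end in cytoplasm are filled, at −0.77 to −0.64.

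In total RNA of LM2 cells the downstream end was higher with T4 at the 6 h and 24 h harvests and not at 72 h. At 6 h it had 46.3, 43.8 and 15.9 CPM with T4, against 7.93, 15.2 and 14.9 CPM with DMSO (log2 1.54 ± 0.34). At 24 h it had 14.1, 13.6 and 11.3 CPM with T4, against 9.53, 9.86 and 4.99 CPM with DMSO (0.67 ± 0.39). At 72 h it had 15.0, 12.6 and 18.4 CPM with T4, against 20.7, 17.6 and 17.8 CPM with DMSO (−0.29 ± 0.33). After TMM scaling the groups did not overlap at 6 h and 24 h, though T4 library 3 at 6 h lay just above the DMSO libraries. It had 7 reads at this end and a TMM factor of 0.5, and the separation at 6 h depends on that scaling. With library totals alone the 6 h change was 1.18. Without T4 library 3 it was 1.90 ± 0.28.

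The main end moved less. It had 114, 141 and 72.5 CPM with T4 at 6 h, against 72.9, 73.4 and 79.3 CPM with DMSO (log2 0.54 ± 0.23), and with library totals alone the change was 0.17. At 24 h it had 73.4, 72.8 and 98.9 CPM with T4, against 98.4, 84.5 and 93.5 CPM with DMSO (−0.18 ± 0.23). At 72 h it had 110.3, 112 and 104 CPM with T4, against 73.7, 106 and 98.5 CPM with DMSO (0.23 ± 0.23). The groups overlapped at all 3 harvests.

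The share at the downstream end was 29, 23.7 and 17.9% with T4 at 6 h, against 9.80, 17.1 and 15.9% with DMSO (log2 ratio 0.95 ± 0.39). At 24 h it was 16.2, 15.8 and 10.3% with T4, against 8.82, 10.5 and 5.06% with DMSO (0.88 ± 0.41). At 72 h it was 12.0, 10.1 and 15.1% with T4, against 22.0, 14.2 and 15.3% with DMSO (−0.53 ± 0.37). Groups were apart at 6 h and overlapped at 24 h and 72 h. The DMSO groups themselves differed between harvests, the 72 h libraries lying above all those of 24 h. Each library had 39 to 238 reads at both ends, so single shares are loose. T4 library 3 at 6 h, with 7 of 39 reads downstream, has a Wilson interval of 8.98 to 32.7%.

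All shares in total RNA, 10.1 to 29% with T4 and 5.06 to 22.0% with DMSO, lay above the 2.98 to 3.81% of LM2 cytoplasm, and all but one of them below the 25 to 35.7% of LM2 nuclei. The sum of the ends differed by a log2 of 0.73 ± 0.22 at 6 h, −0.08 ± 0.22 at 24 h and 0.15 ± 0.22 at 72 h. The median of all genes at 6 h was −0.11. Without T4 library 3 at 6 h the DAZAP2 value was 1.04 ± 0.16, and with library totals as the only scaling it was 0.36. By edgeR 14.5, 5 and 0.154% of 9084 entries were called at 6, 24 and 72 h, and 5.45, 2.48 and 0% of 807 pairs of ends. At 72 h 29 pairs had an unadjusted p under 0.05, and limma and diffSpliceDGE called 0. Because the time course belongs to what chose the gene, no test is given for it and nothing is read from those shares.

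**Figure D5:**
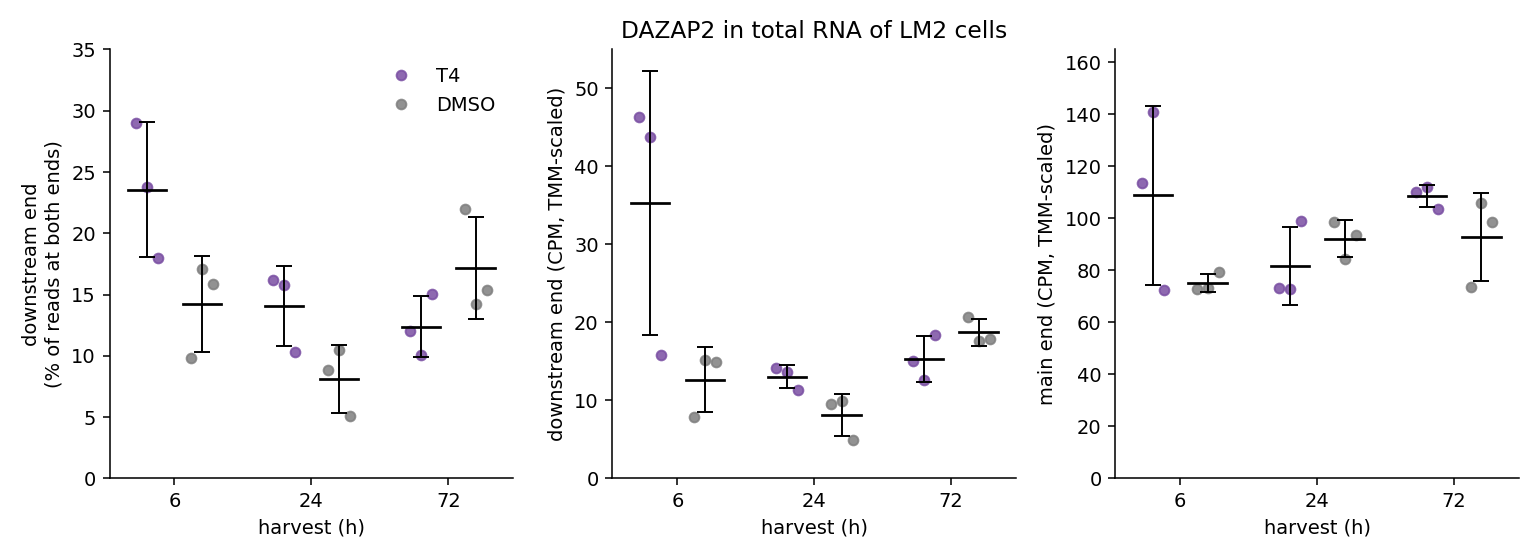
DAZAP2 in total RNA of LM2 cells by harvest in h (x axis), T4 left of DMSO: percent of reads at the downstream end (left), CPM of the downstream end (middle) and CPM of the main end (right). Points are libraries, bars the mean ± SD (n = 3). Downstream CPM with T4 is apart from DMSO at 6 h (15.9 to 46.3 against 7.93 to 15.2) and at 24 h, and overlaps it at 72 h. The separation at 6 h depends on the TMM scaling of T4 library 3.

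Of 14 genes whose proteins DAZAP2 is known to bind or act with, 8 were measured in each fractionated table. HIPK2, a nuclear serine/threonine kinase, was the member called most often. It was at 169 ± 5.84 CPM in LM2 cytoplasm and 283 ± 57.9 CPM in Par cytoplasm (−0.74 ± 0.19, edgeR adjusted p = 0.031). That call was lost without any 1 of the 5 cytoplasmic libraries named above for DAZAP2 (adjusted p = 0.094 to 0.13). It was lost too with DESeq2 size factors (0.055), library totals alone (0.18) and no filter (0.077). HIPK2 was also at 193 ± 56.2 CPM in gHNRNPC nuclei and 349 ± 46.4 CPM in gCTRL nuclei (−0.85 ± 0.22, edgeR adjusted p = 0.012, but 0.076 without gHNRNPC nuclei library 3). In cytoplasm it was at 212 ± 52.1 CPM in gHNRNPC and 322 ± 67.3 CPM in gCTRL cells (−0.60 ± 0.22, edgeR adjusted p = 0.049). That call was lost without gHNRNPC or gCTRL cytoplasm library 1 or 3 (adjusted p = 0.13 to 0.18) and with library totals alone (0.16).

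SMURF2, a ubiquitin ligase, fell to 205 ± 9.24 CPM in gHNRNPC cytoplasm, against 555 ± 64.4 CPM in gCTRL cytoplasm (−1.44 ± 0.18, edgeR adjusted p = 4.3e-06). MAP3K7, the kinase TAK1, rose to 29.9 ± 9.40 CPM in gHNRNPC cytoplasm, against 10.2 ± 4.21 CPM in gCTRL cytoplasm (+1.53 ± 0.33, edgeR adjusted p = 0.0016). In nuclei both changed in the same direction by less and did not pass. There SMURF2 was at −0.47 ± 0.18 (edgeR adjusted p = 0.088) and MAP3K7 at +0.89 ± 0.33 (edgeR adjusted p = 0.071). Of 18 alternatives, SMURF2 passed in nuclei in 2 and MAP3K7 in 1.

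In all, 0 list members rose and 1 fell of 8 in LM2 against Par cytoplasm, where 3 had an unadjusted p under 0.05 and 10.9% of all genes were called. In LM2 against Par nuclei edgeR called 0 of 8, with 1 at an unadjusted p under 0.05, and DESeq2 called 0, where 2.2% of all genes were called by edgeR. Members measured in both tables and not called in any tested comparison included SIAH1 (a ubiquitin ligase), the Wnt-responsive transcription factors TCF7L2 and LEF1, and the translation initiation factor EIF4G1. ITCH, another ubiquitin ligase, was measured in the knockdown table alone and was not called there. After the knockdown 1 rose and 2 fell of 8 in cytoplasm, where 23.4% of all genes were called. In nuclei 1, HIPK2, fell, 1 more member, not reported here, was called, and 6 of 8 were not. There 14.1% of all genes were called. With 8 members, these counts do not set the list apart from all genes. The list's median log2 change was −0.12 and −0.03 in LM2 against Par cytoplasm and nuclei, beside −0.02 and 0.01 over all genes. It was −0.25 and −0.19 in gHNRNPC against gCTRL cytoplasm and nuclei, beside 0.01 and 0.04 over all genes. With T4 at 6 h HIPK2 was at 80.2 ± 52.5 CPM, and with DMSO at 273 ± 28.2 CPM (log2 −1.71 ± 0.34, given without a test). That T4 mean includes library 3, which stood apart. The HIPK2 change was −0.39 ± 0.33 at 24 h and 0.06 ± 0.33 at 72 h. Over the 7 list members measured in total RNA, the median log2 change at 6 h was −0.10, beside −0.11 over all genes.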

How the data were processed

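The authors deposited estimated counts per transcript end or genomic position, which they made with Salmon (0.14.1; hg38), per the submitters' processing notes; other steps are not given in the sources used here. From 98.3 to 98.8% of a library's values are whole. They were rounded; all DAZAP2 values were whole. The choice of limma, held for normalized values, did not apply. Entries without a GENCODE 29 gene held 0.919 to 4.13% of a library's reads and were left out. No other column of per-sample values was present.

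Each table was fitted with edgeR 4.0.16 (R 4.3.3) quasi-likelihood tests, its expression filter, TMM scaling and Benjamini-Hochberg adjustment over all features of a comparison: sums per gene, single entries, and the interaction of end and group for the 2 most used ends of a gene (mean of at least 10 counts each). CPM are computed from these counts. A call is an adjusted p under 0.05. A standard error is the log2 change divided by the root of its F statistic. limma 3.58.1, DESeq2 1.42.0 and the settings in the closing section are alternatives. The fits were tested on simulated data. For pairs of a transcript end and a position, the order was taken from the local offset between both coordinate systems where it put them more than 2000 bases apart, otherwise from the listing.

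DAZAP2, the lists and the comparisons were chosen with earlier results of these data known. The genes named are DAZAP2, HNRNPC, members of the partner list past the test (1 member is not reported here), and the 5 genes nearest to DAZAP2 in nucleus against cytoplasm (Euclidean distance over 4 cell groups). The column names of the poorly metastatic cells differ in wording from their labels and were matched to them by fraction and number.

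Replicate numbers were taken to pair the samples where all 3 same-numbered deviations correlated above 0.1, a working cutoff. This held in LM2 against Par nuclei (0.64, 0.76 and 0.16) and T4 against DMSO at 72 h (0.29, 0.64 and 0.14), so the blocked fit applies there. Deviations are from the mean of 3 libraries, so 1 unusual library per group enters all 3 correlations. Libraries numbered 2 stood apart in LM2 and Par nuclei, and had the highest TMM factors at 72 h (1.45 with T4, 1.25 with DMSO). Whether they account for these correlations was not tested. No 2 libraries held identical values.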

Additional observations from a re-analysis of the deposited data

How the results depend on the processing

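DAZAP2 kept the direction of its summed level and of its ratio of ends in every alternative run, for all comparisons given. The sum in LM2 against Par cytoplasm (−0.64) was −0.72 with library totals alone and −0.64 with no filter, and −0.71 to −0.60 with 1 library left out, not past the threshold in several of these (adjusted p up to 0.18 over all alternatives). The gHNRNPC against gCTRL ratio in cytoplasm was 0.83 to 1.55 with 1 library left out. The nucleus minus cytoplasm sum in gHNRNPC cells was −0.27 with DESeq2 or its size factors, −0.35 with library totals and −0.28 to −0.20 with 1 library left out. With library totals the T4 change of the sum was 0.36 at 6 h, −0.28 at 24 h and 0.31 at 72 h. The downstream end, not called in any tested comparison, changed sign in LM2 against Par cytoplasm (0.015 with DESeq2 size factors, −0.25 to 0.065 with 1 library left out), in LM2 against Par nuclei (0.050 without both nuclear libraries numbered 2) and in gHNRNPC against gCTRL nuclei (−0.026 to 0.30 with 1 library left out). The causes were not tested.

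With a replicate block no DAZAP2 call changed. The sum was −0.65 in LM2 against Par cytoplasm (edgeR adjusted p = 0.035). It was −0.53 in nuclei (edgeR adjusted p = 0.16), where the numbers were taken to pair the samples. In gHNRNPC against gCTRL cytoplasm it was −0.73 (adjusted p = 0.0078). Elsewhere the numbers were not taken to pair the samples, with correlations of −0.35 to 0.14, which do not show that the samples are unpaired. HIPK2 in gHNRNPC against gCTRL cytoplasm (adjusted p = 0.076) lost its call in that fit.

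The number of genes called in LM2 against Par was 929 in cytoplasm (223 to 2490 over the alternatives) and 188 in nuclei (28 to 255). After the knockdown it was 2187 (1448 to 2335) and 1323 (787 to 1437). Calls on the ratio of ends numbered 0 to 214 for LM2 against Par in cytoplasm and 0 to 1 in nuclei. After the knockdown they numbered 57 to 166 in cytoplasm and 11 to 50 in nuclei. The nearest 5 genes kept 3 members with no minimum count, 5 with the replicate block and 4 with limma, alternatives chosen after seeing the data, as were those for the partner genes. A minimum mean of 50 counts per end gave no value for DAZAP2 in the LM2 and T4 tables, where its downstream end falls short. The downstream end had 8 to 29 reads in cytoplasmic and 7 to 51 in total RNA libraries, which limits what its values can show.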
